A study of Arabidopsis thaliana with 3 samples.

Results

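The genes described here are those of the mitochondrial genome and the nuclear genes of mitochondrial proteins among the 2762 genes that the authors called in their comparison of *dss1(I)* with WT seedlings of *A. thaliana*. A gene was taken if it lies on the mitochondrial genome, or if it carries no protein domain label and its description holds the word mitochondri, NADH dehydrogenase, cytochrome c, ATP synthase or uncoupling. Chloroplast genes and genes described as pentatricopeptide, ribosomal, alternative oxidase, heat shock, chaperone or DnaJ proteins were left out. This gave 37 of 2762 genes, of which 4 are encoded in the mitochondrion and 33 in the nucleus. The description of 1 of the 33, AT1G16820, names a vacuolar ATP synthase, so it is a member by its words and not by its organelle.

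All seedlings were 14 days old and had then spent 3 days on agar with 10 mM hydrogen peroxide, and no untreated seedlings were analysed here. The *dss1(I)* seedlings were of 1 homozygous CRISPR/Cas9 line (*dss1(I)del25*, labelled a knockdown), and the WT seedlings were Columbia-0. Each genotype is 1 library of poly-A RNA, combined from independent experiments, so the differences below have no replicate check, and they are differences between 2 libraries and not shown to be differences between genotypes. Reads on genes numbered 11033843 in the *dss1(I)* library and 9394592 in the WT library, and the members took 0.158% and 0.329% of them. The mutated gene *AtDSS1(I)* (AT1G64750) had 233 reads in *dss1(I)* against 807 in WT, and its paralog *AtDSS1(V)* (AT5G45010) had 21 and 73. The tissue label could not be checked, because none of 8 markers of green tissue and root is in the table of called genes.

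Mitochondria make ATP by passing electrons from NADH and succinate along membrane complexes to oxygen, and the proton gradient built on the way drives ATP synthase. Plant mitochondria keep a small genome with a few core subunits of these complexes, while most subunits, and the proteins that transcribe, edit and repair that genome, are encoded in the nucleus and imported. In plant mitochondria a poly-A tail marks transcripts for decay rather than stabilising them, so poly-A libraries hold few reads from this genome. In seedlings under oxidative stress mitochondria are both a source and a target of reactive oxygen.

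Short upstream sequences are shown first, because the promoters of many plant genes for respiratory proteins carry the so-called site II core (TGGGCC or TGGGCT, read on either strand). In a window from 250 bases before to 50 bases after the annotated start, 7 of the 9 nuclear complex I members held at least 1 core (77.8%) and 6 of them held 2 or more, where overlapping matches were counted each. The share was 39.4% (13 of 33) over all nuclear members and 21.7% over 27443 nuclear protein genes of the annotation. It was 18.1% over the 879 other genes of the table that were lower in *dss1(I)* and had the lengths of the complex I members. The telo box (AAACCCTA, either strand, where end bases may overlap a core) was found in 2 of 33 nuclear members (6.06%) and in 6.22% of all nuclear protein genes. Below are the 150 bases before the annotated start, 5′ to 3′ on the strand of the gene, for the 4 members with at least 2 cores in that stretch and no other annotated gene across it. Capitals mark the cores, and the sequence and start sites are those of RefSeq TAIR10.1.
AT1G76200 (complex I subunit, chr1:28593061-28593210, plus strand): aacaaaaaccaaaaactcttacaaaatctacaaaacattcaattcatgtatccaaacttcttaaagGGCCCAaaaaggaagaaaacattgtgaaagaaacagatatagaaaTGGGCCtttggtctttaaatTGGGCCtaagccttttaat
ATCOX17 (copper chaperone of cytochrome c oxidase, chr3:5179208-5179357, plus strand): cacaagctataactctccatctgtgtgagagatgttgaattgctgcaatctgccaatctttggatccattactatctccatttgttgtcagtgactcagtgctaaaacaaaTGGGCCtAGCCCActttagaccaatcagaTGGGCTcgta
TIM13 (import chaperone, chr1:22719536-22719685, minus strand): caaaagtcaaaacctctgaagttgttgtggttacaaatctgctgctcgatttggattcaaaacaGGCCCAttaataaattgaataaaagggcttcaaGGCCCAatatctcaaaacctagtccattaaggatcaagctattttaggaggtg
MORF4 (RNA editing factor, chr5:18067775-18067924, plus strand): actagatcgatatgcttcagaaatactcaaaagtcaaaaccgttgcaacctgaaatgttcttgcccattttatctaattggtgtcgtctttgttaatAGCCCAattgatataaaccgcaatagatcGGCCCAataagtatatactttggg

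The first 3 of these genes were lower in *dss1(I)* and *MORF4* was higher, so a pair of cores stood before genes of either direction. Of the complex I members, AT1G14450 and AT2G02510 held 4 cores each, AT1G76200 and AT5G47890 held 3, CIB22 and AT2G47690 held 2, AT3G08610 held 1, and AT1G49140 and AT5G47570 held none. A match of letters is a description and was not tested as a binding site.

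**Figure D1:**
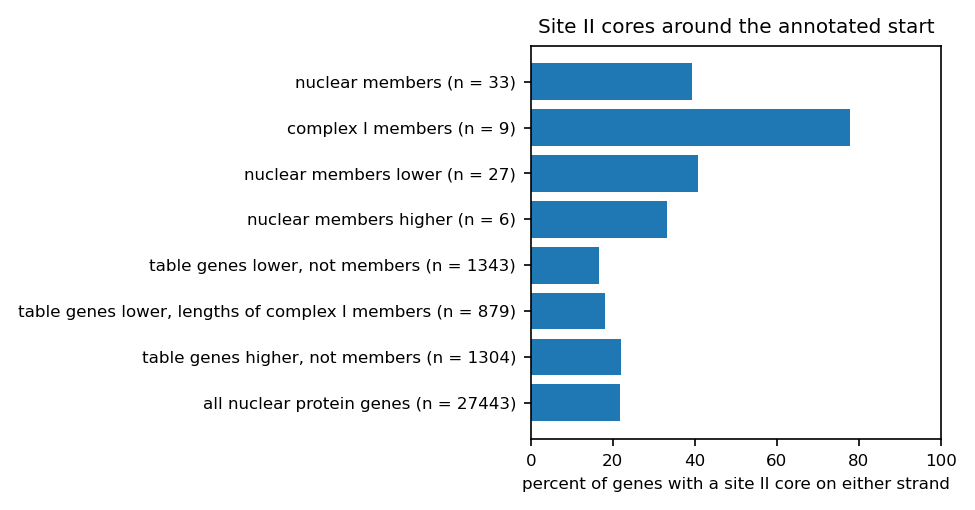
Percent of genes with at least 1 site II core (TGGGCC or TGGGCT, either strand) within 250 bases before and 50 bases after the annotated start, as 1 bar per gene set with the number of genes beside its name. The bar of the complex I members stands at 77.8%, and the bars of the 3 sets of other table genes and of all nuclear protein genes lie between 16.8% and 22.0%.

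The level of a gene in each library was compared as the log2 ratio of *dss1(I)* to WT of the counts that the authors scaled to a common library size, after adding a pseudocount of 1. The interval given with it is an exact 95% interval on the reads and covers counting error only. All 37 members reached a scaled count of 10 in 1 library or more. The log2 ratio was at most -1 (lower) in 31 of them and at least 1 (higher) in 6. Of all 2620 genes of the table that reached this minimum, 51.0% were lower and 48.1% were higher. The table holds only called genes, so nearly every gene in it is past this 2-fold limit and the direction is the only free part of a call. No member's interval reached 0, while 20 of the 37 had a log2 ratio under 1.2 in size.

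When the libraries were scaled instead by the median ratio over the table, the log2 ratios moved up by 0.98 to 1.02 in the 30 members with at least 10 reads in both libraries, and by 0.46 to 0.96 in the 7 with fewer, where the pseudocount weighs more. Of all 37 members 12 were then above 0, with 6 at or past 1 and 6 at or below -1, the latter *NAD4* and 5 nuclear members. Of the 2605 table genes that reached the minimum under this scaling, 50.1% were at or past 1 and 11.1% at or below -1. After this scaling 3 of the 37, *NAD4*, AT1G48510 and AT2G07671, no longer reached the minimum of 10. A shift of this size carries any gene just past -1 to near 0, so the 6 members that crossed 0 are those nearest to the limit. The table holds called genes only and its median log2 ratio was -1.02, so the size of this shift follows from which genes were called. A crossing of 0 under this scaling therefore cannot show whether a member differs between the libraries.

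**Figure D2:**
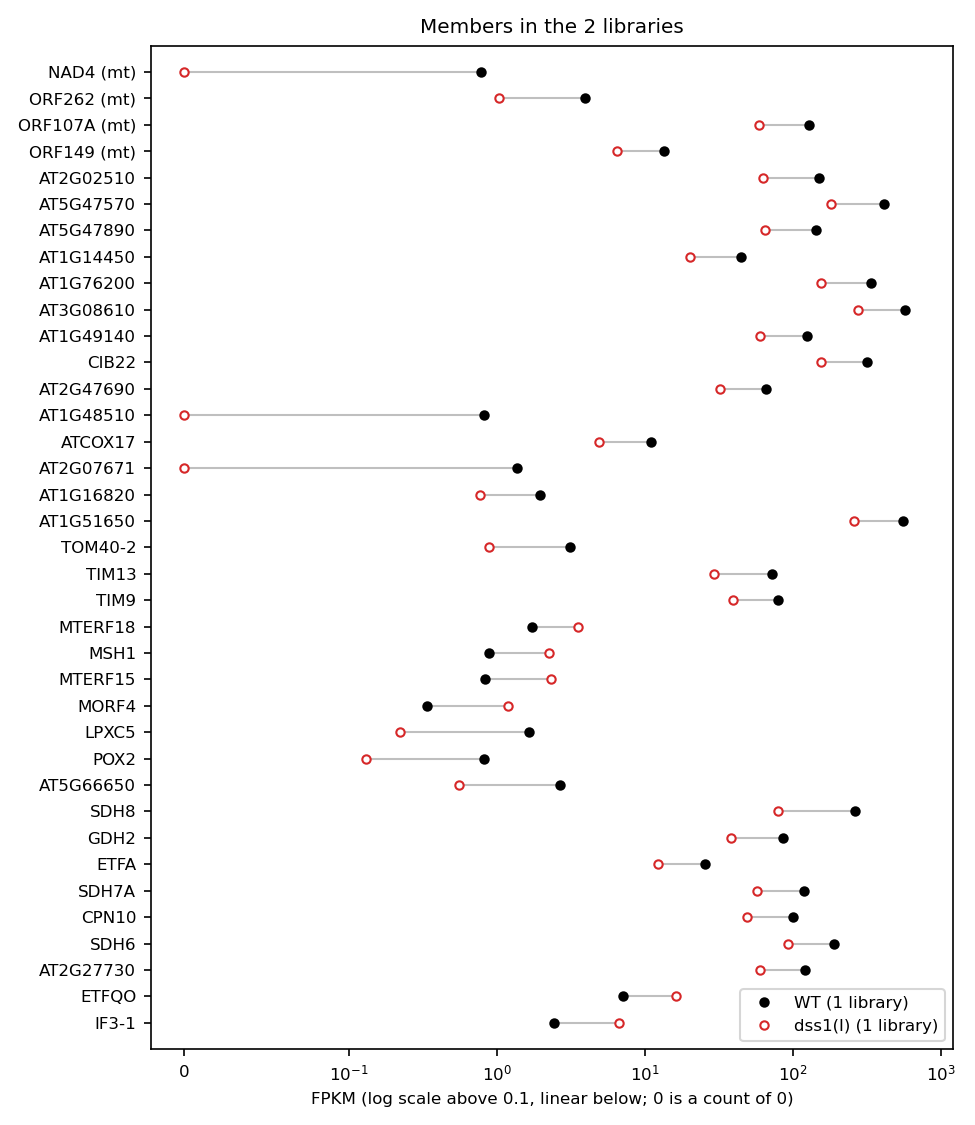
FPKM of each of the 37 members in the *dss1(I)* library (open red circles) and the WT library (black circles), on an axis that is logarithmic above 0.1 and linear below; mt marks the 4 genes of the mitochondrial genome. The black circle lies to the right for 31 members and the red circle for 6, and 3 members are at 0 in *dss1(I)*.

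The 4 mitochondrion-encoded members had fewer reads in *dss1(I)* than in WT. Together they had 250 reads in *dss1(I)*, or 22.7 for each 1000000 reads on genes, and 486 in WT, or 51.7 for each 1000000. Their median log2 ratio was -1.45. *ORF107A* (ATMG00030), an open reading frame without a known function, held most of these reads, with 209 in *dss1(I)* against 389 in WT (FPKM of 58.5 and 127.8). Its log2 ratio was -1.11 (counting interval -1.36 to -0.87). *ORF149* (ATMG00660), likewise uncharacterised, had 32 and 57 reads, with a log2 ratio of -1.03 (counting interval -1.72 to -0.40). *ORF262* (ATMG01090) had 9 and 29 reads, with a log2 ratio of -1.79 (counting interval -3.17 to -0.79).

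*NAD4* (ATMG00580) is the only member of this genome with a known product, a membrane subunit of complex I through which protons are pumped. It had 0 reads in *dss1(I)* against 11 in WT. Set against the scaled count of 3 reads, it was 4.27-fold lower in *dss1(I)*. The upper end of its counting interval was a log2 ratio of -1.55. At this depth the level of *NAD4* is poorly fixed, and its FPKM in WT was 0.787, far below that of *ORF107A*. Another gene of this genome, *RPSL2* (ATMG00980, ribosomal protein S12), had 1 read in *dss1(I)* against 10 in WT but was left out as a ribosomal gene. The other genes of the mitochondrial genome are not in the table of called genes and were not analysed here.

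Counting on this genome is uncertain, because a large piece of mitochondrial DNA also lies in nuclear chromosome 2. The longest exon of *nad4* in TAIR10.1, 515 bases, has an identical copy at chr2:3420092-3420606. The nuclear member AT2G07671, annotated as subunit 9 of ATP synthase at chr2:3251566-3252341 on the minus strand, is part of that piece, and its whole transcript of 776 bases is identical to the mitochondrial genome around *atp9*. The first 60 of the 225 coding bases that the 2 genes share are shown, as they explain why reads of this gene cannot be placed.
AT2G07671 and *atp9* (chr2:3252021-3252080, minus strand): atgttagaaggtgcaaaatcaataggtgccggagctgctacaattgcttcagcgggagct

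AT2G07671 had 0 reads in *dss1(I)* against 10 in WT, 3.88-fold lower when set against 3 reads. The upper end of its counting interval was a log2 ratio of -1.38. Its reads and those of the mitochondrial *atp9* cannot be told apart. How reads that map to several places were counted is not given in the sources used here. The mitochondrial sequence of TAIR10.1 is another assembly than the one in the authors' build, and *ORF107A*, *ORF149* and *ORF262* were not compared with the nuclear genome.

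The chloroplast genome is the closest counterpart. Of its 13 genes in the table, 11 were lower and 2 were higher in *dss1(I)*, with a median log2 ratio of -1.30. Their median length was 246 bases, and 88.1% of the table genes of 66 to 813 bases that are not members were lower. The chloroplast genes that were higher were *RPOB* (193 and 81 reads), a subunit of the plastid RNA polymerase, and *RPS3* (77 and 21 reads), a ribosomal protein. Of the other genes of the table in the length groups of the 4 mitochondrion-encoded members, 84.4% were lower.

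**Figure D3:**
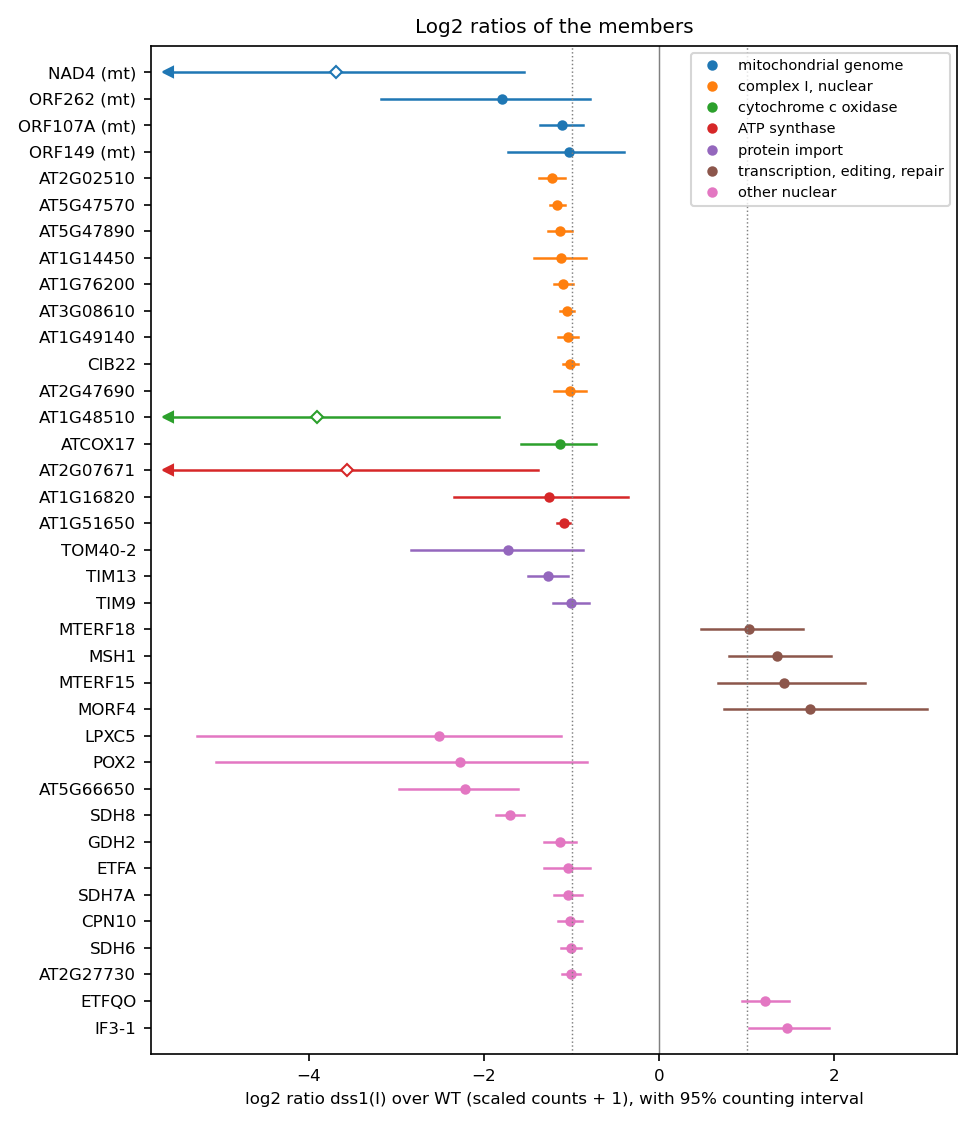
Log2 ratio of *dss1(I)* to WT for each member (points), with its exact 95% counting interval (lines), coloured by role; dotted lines stand at -1 and 1. Open diamonds with arrows are the 3 members with 0 reads in *dss1(I)*, whose points depend on the pseudocount; the 9 nuclear complex I members lie between -1.22 and -1.01.

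Complex I takes electrons from NADH and pumps protons, and its small nuclear-encoded subunits surround the catalytic core. All 9 nuclear complex I members were lower in *dss1(I)*, with log2 ratios from -1.22 to -1.01 and a median of -1.09, while 2 of them, CIB22 and AT2G47690, passed to above 0 under the median-ratio scaling. AT2G02510 (beta subcomplex subunit 3-A) had 553 reads in *dss1(I)* against 1112 in WT (log2 ratio -1.22, counting interval -1.38 to -1.08). Its close relative AT1G14450 had 146 and 274 reads (log2 ratio -1.12). The longest stretch identical between their transcripts was 20 bases, so that few reads could be shared.

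AT3G08610 (alpha subcomplex subunit 1) was the most abundant member per length, with 1970 reads in *dss1(I)* against 3506 in WT and an FPKM of 273.4 and 571.5. AT5G47570 (beta subcomplex subunit 8) had 1583 and 3045 reads (FPKM of 180.7 and 408.2), and its log2 ratio of -1.16 had an counting interval -1.25 to -1.07 that lay wholly below -1. AT1G76200 (beta subcomplex subunit 2) had 1037 and 1905 reads, with an FPKM of 155.1 and 334.6. CIB22 (AT4G34700, beta subcomplex subunit 9) had 1742 and 3027 reads, with an FPKM of 154.6 and 315.6. The other 5 subunits had WT FPKM values from 44.5 to 148.5.

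These subunits were deeply counted in both libraries, and their ratios lay within a narrow band. AT5G47890 (alpha subcomplex subunit 2) had 656 and 1238 reads, AT1G49140 (beta subcomplex subunit 10-A) had 976 and 1726, and AT2G47690 (iron-sulfur protein 5-A) had 379 and 659. In RefSeq, 27 nuclear genes carry a complex I subunit name, 10 of them are in the table and all 10 were lower. This number includes AT2G42310 (921 and 1768 reads) and AT3G57785 (61 and 128 reads), whose descriptions in the deposited table do not match the rule, and not CIB22. The other 17 are not among the called genes and were not analysed here.

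Short genes were lower in this table in general, and the complex I genes are short (606 to 1485 bases). Of the other table genes in their length groups, 87.6% were lower. Of 192 other genes with these lengths and at least the WT FPKM of the lowest complex I member, 182 had a log2 ratio of at most -1. The median log2 ratio of those that were lower was -1.26, against -1.09 for complex I. The 9 genes therefore stood on the common side for their length, with differences that were smaller than the median of such genes.

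Complex II, succinate dehydrogenase, passes electrons from the citric acid cycle to ubiquinone, and in plants it has several small subunits of unknown role beside the classical ones. Its 3 members in the table are of the plant-specific kind, and all 3 were lower, with *SDH6* above 0 under the median-ratio scaling. Of the other table genes, 88.1% were lower in the length group of *SDH8* and 91.5% in that of *SDH6* and *SDH7A*. *SDH8* (AT2G46390) had 458 reads in *dss1(I)* against 1282 in WT, a log2 ratio of -1.70 (counting interval -1.86 to -1.55). *SDH6* (AT1G08480) had 918 and 1586 reads (log2 ratio -1.01) and *SDH7A* (AT3G47833) had 535 and 946 (log2 ratio -1.04). The interval of *SDH8* did not overlap those of *SDH6* (from -1.13 to -0.89) and *SDH7A* (from -1.20 to -0.89). This group was noticed after its values were seen. RefSeq names 13 nuclear genes for succinate dehydrogenase, and the other 10 are not in the table.

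Cytochrome c oxidase, complex IV, reduces oxygen to water. The 2 members with this name are assembly factors and not subunits. *ATCOX17* (AT3G15352), a copper chaperone for the enzyme, had 71 and 135 reads (log2 ratio -1.13, counting interval -1.58 to -0.72). AT1G48510, a relative of the Surfeit locus 1 assembly protein, had 0 reads in *dss1(I)* against 13 in WT. Set against 3 reads, it was 5.04-fold lower, and the upper end of its counting interval was a log2 ratio of -1.83. ATP synthase was represented by its epsilon subunit, AT1G51650, part of the central stalk. This gene had 2264 and 4137 reads (FPKM of 258.1 and 553.9), the second highest level per length among the members. Its log2 ratio of -1.09 had an counting interval -1.16 to -1.01. The vacuolar gene AT1G16820 had 14 and 30 reads (log2 ratio -1.25, counting interval -2.35 to -0.36).

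Nuclear-encoded proteins enter through the TOM pore of the outer membrane, and small TIM proteins escort hydrophobic ones across the space between the membranes. *TIM13* (AT1G61570) had 247 and 511 reads (log2 ratio -1.26, counting interval -1.49 to -1.04). *TIM9* (AT3G46560) had 311 and 536 (log2 ratio -1.0003, counting interval -1.21 to -0.80). *TOM40-2* (AT1G50400), a second gene for the pore itself, had only 13 and 39 reads (log2 ratio -1.72, counting interval -2.83 to -0.87). All 3 import members were thus lower, *TIM9* by hardly more than the limit of 2-fold, and *TIM9* was above 0 under the median-ratio scaling. Of the other table genes, 88.1% were lower in the length group of *TIM13* and *TIM9* and 85.2% in that of *TOM40-2*.

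The metabolic enzymes among the members that were lower are given next. *POX2* (AT5G38710), a proline dehydrogenase that starts proline breakdown, had 3 reads in *dss1(I)* against 16 in WT (log2 ratio -2.27, counting interval -5.05 to -0.83). The gene labelled *GDH2* (AT2G35120), the lipoyl-carrying H protein of the glycine cleavage system of photorespiration, had 371 and 698 reads (log2 ratio -1.13). *LPXC5* (AT1G25054), a deacetylase of a lipid A-like pathway, had 3 and 19 reads (log2 ratio -2.51, counting interval -5.28 to -1.12). Its transcript shares an identical stretch of 311 bases with AT1G24793, so its reads may be split between copies. Besides AT2G07671 it was the only one of the 33 nuclear members with an identical stretch of at least 100 bases elsewhere in the genome. By words for enzymes of the citric acid cycle, glycine cleavage and proline breakdown, 8 genes of the table were found, 5 of them members, and all 8 were lower (*SDH6* above 0 under the median-ratio scaling), against 74.6% of other table genes in their length groups. The words also took in *SFC1*, a carrier, AT5G51040, an assembly factor, and *NADP-ME1* (17 and 105 reads), a malic enzyme of the cytosol.

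AT5G66650, described as a mitochondrial calcium uniporter protein 3, is the longest of the lower members at 3922 bases. It is a member by the words of its description, and the location of its protein was not checked here. It had 24 reads in *dss1(I)* against 99 in WT, a log2 ratio of -2.21 (counting interval -2.97 to -1.61). Of the 339 other table genes in its length group, 95.3% were higher, so this gene stood on the rare side for its length. *CPN10* (AT1G14980), the co-chaperonin that caps the matrix folding chamber, had 687 and 1196 reads (log2 ratio -1.02). AT2G27730, uncharacterised, had 1206 and 2076 reads (log2 ratio -1.0004).

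The electron transfer flavoprotein and its oxidoreductase carry electrons from the breakdown of branched-chain amino acids to ubiquinone, and their genes pointed in opposite directions. *ETFA* (AT1G50940), the alpha subunit, had 188 reads in *dss1(I)* against 334 in WT (log2 ratio -1.04, counting interval -1.31 to -0.78). *ETFQO* (AT2G43400), the enzyme that receives its electrons, had 423 and 157 reads (log2 ratio 1.21, counting interval 0.94 to 1.49). The intervals lie on either side of 0. The genes differ in length, *ETFA* with 1391 bases and *ETFQO* with 2352, and the usual direction of the table differs between these lengths.

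Genes for the upkeep and expression of the mitochondrial genome were higher in *dss1(I)*. *MSH1* (AT3G24320), a MutS homologue that suppresses recombination between repeats of the organelle genome, had 105 reads in *dss1(I)* against 35 in WT (log2 ratio 1.34, counting interval 0.80 to 1.96). *MORF4* (AT5G44780), of a family that takes part in C-to-U editing of organelle transcripts, had 37 and 9 reads (log2 ratio 1.72, counting interval 0.74 to 3.06). *MTERF15* (AT1G74120) and *MTERF18* (AT3G60400), of a family of organelle transcription and splicing factors, had 55 and 17 reads and 89 and 37 reads (log2 ratios 1.43 and 1.03). *IF3-1* (AT1G34360), a translation initiation factor, had 174 and 54 reads (log2 ratio 1.45, counting interval 1.02 to 1.94). All 4 members of the group fixed for transcription, DNA and RNA were higher, and *IF3-1* and *ETFQO* were the other members on that side.

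The 6 higher members were weakly expressed in WT, with FPKM values from 0.340 to 7.11, against a median of 84.7 in the 27 lower nuclear members. They are also long (2159 to 4232 bases), and their lengths did not reach those of the other nuclear members apart from AT5G66650. Of 711 other table genes with lengths in this range, 84.2% were higher, and the median log2 ratio of those was 1.21, against 1.39 for the 6 members. Pentatricopeptide genes described as mitochondrial, which act on organelle transcripts and were left out by the rule, were higher in 28 of 30 cases, with a median length of 2459.5 bases.

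**Figure D4:**
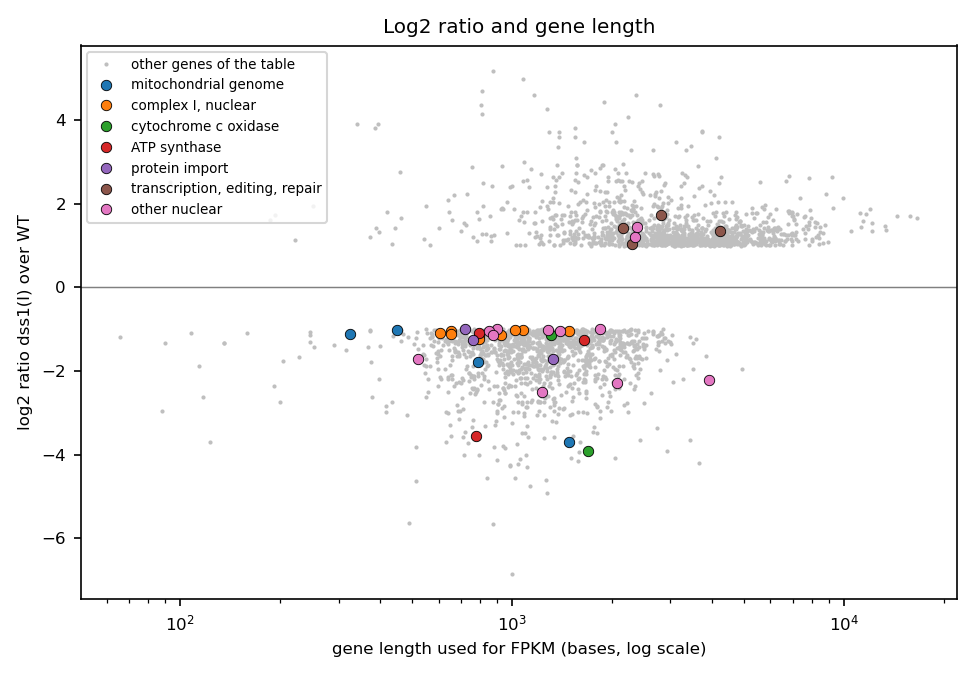
Log2 ratio of *dss1(I)* to WT against gene length (log axis) for the 37 members (coloured by role) and the other genes of the table that reached the minimum (grey). The 6 higher members lie between 2159 and 4232 bases, all 9 complex I members lie between 606 and 1485 bases, and no gene lies near 0 because the table holds called genes only.

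Gene length was therefore taken into account for the nuclear members as a whole, over 8 length groups of equal size. Of the 33 nuclear members, 18.2% were higher (Wilson 95% interval 8.61 to 34.4%), against 29.6% of the other table genes at the same lengths, which lies inside that interval. All 24 members in the shorter 4 groups were lower (Wilson interval 86.2 to 100%), where 86.0% of the other genes were, just below that interval. In the longer 4 groups 6 of 9 members were higher (66.7%, Wilson interval 35.4 to 87.9%), where 71.2% of the other genes were. Like other table genes, the nuclear members were mostly lower in the shorter groups and mostly higher in the longer ones. The Wilson intervals treat the genes as independent draws, although all were measured in the same 2 libraries. They therefore cannot decide whether the members differ from table genes of their length.

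A feature that the rule did not use was more frequent among the proteins of the nuclear members than among all nuclear proteins. Many matrix proteins enter with an amino-terminal presequence that is rich in arginine and poor in acidic residues. In the first 30 residues translated from RefSeq TAIR10.1, 19 of 33 nuclear members had at least 3 more arginines and lysines than aspartates and glutamates (57.6%), against 25.1% of 27444 nuclear proteins. All 6 higher members had this excess, with 4 to 7 residues, and the description of each says mitochondrial. Of the 20 nuclear members described as mitochondrial, 13 had the excess (65.0%). Whether these descriptions were themselves given from such sequences is not known here, so the feature may not be independent of the rule. Of the 27 lower nuclear members, many of which entered by other words, 13 had the excess of basic residues. *TIM9*, *TIM13* and *TOM40-2* had an excess of acidic residues instead. So had the complex I members AT1G49140, AT2G47690 and AT3G08610, as well as *SDH6* and AT1G16820. In yeast, the counterparts of the import proteins *TIM9*, *TIM13* and *TOM40-2* have no cleaved presequence. The higher members encode long proteins (median of 596 residues), and the lower members short ones (median of 98 residues).

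Genes known to respond to mitochondrial dysfunction are a usual readout of the organelle's state. Of 15 such genes, 4 are in the table, and 3 of these were lower. AT4G24570, a dicarboxylate carrier labelled *PUMP4* in the table, had 146 reads in *dss1(I)* against 1052 in WT (log2 ratio -3.06, counting interval -3.33 to -2.82). *HSR4* (AT3G50930), an outer membrane AAA protein, had 144 and 268 reads (log2 ratio -1.11), and AT2G21640, which responds to oxidative stress, had 178 and 318 (log2 ratio -1.05). AT2G41380 had 499 and 859 reads, with a log2 ratio of -0.9995, just short of the limit. Of the other table genes in the length group of AT2G21640 (735 bases), 88.1% were lower. The share was 85.2% in the group of AT4G24570 (1192 bases) and AT2G41380 (1280 bases), and 26.5% in that of *HSR4* (2656 bases). Whether the listed genes differ from genes of their length was not tested. The other 11 genes of the list are not in the table and were not analysed here.

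The domain label kept out 11 genes that match the words of the rule, of which 7 were lower and 4 higher. The 5 with a mitochondrial carrier domain were all lower, with log2 ratios from -2.83 to -1.21, where 58.8% of the other table genes in their length groups were lower. They include *PUMP5* (AT2G22500), a dicarboxylate carrier of the uncoupling protein family with 163 reads in *dss1(I)* against 549 in WT, and *AAC2* (AT5G13490), an ADP/ATP exchanger with 956 and 1900 reads. *BAC2* (AT1G79900), an arginine carrier, had 4 and 30 reads. Those on the higher side were *MCCA* (1690 and 552 reads), a subunit of the enzyme that degrades leucine, *FRO3* (2301 and 923 reads), a ferric reductase, *emb2726* (4659 and 1860 reads), an elongation factor, and *KIN7D* (735 and 291 reads), a kinesin. Of the other table genes, 73.5% were higher in the length group of *MCCA* and *FRO3*, and 95.3% in that of *emb2726* and *KIN7D*. These 4 genes thus stood on the common side for their length.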

How the data were processed

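RNA of *dss1(I)* and WT seedlings on hydrogen peroxide was compared, 1 library per genotype, while *dss1(V)* was not analysed here. Per the paper's methods and the labels, the authors filtered reads with fastp, aligned to TAIR10 using HISAT2 (2.0.5), and ran featureCounts (1.5.0-p3) for the number of reads on each gene. The deposited raw counts are not normalized. For the deposited scaled counts, a signal, the authors used edgeR to bring both libraries to 1 size. FPKM, by the authors, divides a count by gene length and library total. The deposited log2 fold changes, p-values and adjusted p-values hold the authors' own comparison and were not used. The table holds only genes that the authors called, so every background is of called genes. Per-sample columns left unused numbered 0.

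The log2 ratio of scaled counts (pseudocount 1, minimum of 10 in at least 1 library) was computed without a test, because 1 library per genotype leaves no replicate error. Exact Clopper-Pearson 95% intervals cover counting error only. A member with 0 reads was set against a floor of 3 reads in that library. Library totals came from count, FPKM and length. Members were grouped by words of their descriptions. All mitochondrion-encoded members were named, together with the 10 nuclear members with the largest rise and the 10 with the largest fall, the extremes of each group, the 5 with the highest FPKM, list members in the table, and the mutated gene and its paralog; other members were added so that each is accounted for. The members and lists were chosen with earlier results of these data known. All 33 nuclear members matched a TAIR10.1 locus tag with the same start and end. Copies were sought with blastn (2.17.0). Software was Python 3.11.15, scipy 1.17.1, pandas 2.3.3, numpy 2.4.6 and matplotlib 3.10.9, and the ratios were tested on simulated data.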

Additional observations from a re-analysis of the deposited data

How the results depend on the processing

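Pseudocounts of 0.1 and 5 left every member's direction and moved no log2 ratio beyond its counting interval. With a pseudocount of 5, 3 of 4 mitochondrion-encoded and 30 of 33 nuclear members were still past a log2 ratio of 1 in size. Of all table genes 44.8% were then higher and 48.7% lower. Scaling by the median ratio over the table took *NAD4*, AT1G48510 and AT2G07671 under the minimum of 10. Over the 3 mitochondrion-encoded and 31 nuclear members that reached it, 0 and 9 were past a log2 ratio of 1 in size, with medians of -0.089 and -0.024. Over all members, 1 of 4 and 11 of 33 were past it, with medians of -0.46 and -0.062, and 30 of 37 ratios lay outside their counting intervals. Of these, 6 had turned to above 0, namely AT4G34700 (0.010), AT1G14980 (0.0075), AT1G08480 (0.0185), AT2G27730 (0.0238), AT2G47690 (0.0093) and AT3G46560 (0.022). By its construction over called genes only, whose median log2 ratio was -1.02, this scaling shifts well-counted genes by about 1.02. Scaling to equal totals over the table left 2 mitochondrion-encoded and 17 nuclear members past the limit. Of all table genes 48.5% were then higher and 40.4% lower. A minimum of 50 left 2 mitochondrion-encoded members to count. With a limit of 2, 1 mitochondrion-encoded and 5 nuclear members counted, while 6.30% of all table genes were higher and 12.3% lower. The share of nuclear members that were higher, less that of other genes of similar length, was -11.4 percentage points, and it was -11.3 to -4.83 under the other settings run. Including genes with a domain label, or leaving out AT2G07671 and AT1G16820, were choices made after the data were seen and changed no direction of a median. No paired analysis was possible because 1 library stands for each genotype. Depth limits the members with under 10 reads in *dss1(I)*, 6 of 37, most.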
